A study of Rattus norvegicus with 11 samples.

Results

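The 9 genes described here encode receptors through which nerves and local mediators contract or relax the bladder wall. They were taken as the rows of the deposited table with the symbols Chrm2, Chrm3, P2rx1, P2rx4, P2rx5, P2rx7, Adrb3, Tacr2 and Ednra, by name, and all 9 were found among its 18507 genes. Bladder tissues of Sprague-Dawley rats, which the study's methods give as female and under a year of age, were sequenced in 4 groups. The PBOO groups had a suture tied around the bladder neck and urethra (partial bladder outlet obstruction) and were sampled at week 4 (3 samples) and week 5 (2 samples). The control groups, called normal in the labels, had an abdominal incision without a tie according to the methods, and were sampled at week 4 (3 samples) and week 5 (3 samples). The normal week 5 samples carry the word adult in their descriptions and the PBOO week 5 samples the letters DO. The week 4 samples of both groups carry the word Input. No source used here explains these names or says whether the week 5 groups were prepared together. No genotype or drug differs between the groups. Levels are FPKM (fragments per kilobase of exon scaled to the fragments mapped in the sample), which allows genes of different length to be compared within a sample.

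The parasympathetic nerves of the bladder release acetylcholine and ATP, which contract the detrusor, the smooth muscle of the bladder wall. Muscarinic receptors answer to acetylcholine and P2X receptors are cation channels opened by ATP. Tachykinins and endothelins add to contraction, whereas the beta-3 adrenergic receptor relaxes the detrusor while the bladder fills.

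Before the receptors are described, the make-up of the samples has to be given, since it moved with PBOO. The summed level of 10 smooth muscle markers (Myh11, Actg2, Des, Cnn1, Tagln, Smtn, Lmod1, Synpo2, Mylk and Myocd) was 22786 to 24056 FPKM in normal and 46297 to 77142 FPKM in PBOO samples at week 4, where 1 of the 10 (Actg2, log2 fold change 2.27, limma adjusted p = 0.0483) passed the adjusted test. The median log2 fold change of the 10 at week 4 was 0.56 (range -0.24 to 2.27), 6 were above normal without overlap, and Smtn, Lmod1, Mylk and Myocd overlapped with normal. At week 5 the sum was 20322 to 24268 FPKM in normal samples and 887 to 1570 FPKM in the PBOO samples, and all 10 markers fell there (median log2 fold change -4.34). The PBOO week 5 samples therefore carried little of the RNA that defines detrusor, although both were labelled as bladder tissue. The urothelial sum was 6171 to 7692 FPKM in normal and 3449 to 4681 FPKM in PBOO samples of week 4, where 8 of 9 markers tested were lower by the unadjusted p and 0 passed the adjusted test (median log2 fold change -0.74). At week 5 the urothelial markers were split, since Krt5 and Krt19 rose, Krt20, Upk3b and Upk2 fell, and the median was -0.36. Their sum was 6286 to 7933 FPKM in normal and 8153 to 9191 FPKM in PBOO samples, but without Krt5 and Krt19 it was 5629 to 6709 and 3330 to 4672 FPKM, which turns the direction. Of the nerve and glia markers, 4 of 7 tested were lower and 1 was higher by the unadjusted p at week 4 (median -0.78), and 4 of 6 fell at week 5 (median -2.49). Their sum was mostly Uchl1 and overlapped at week 5 (774 to 828 FPKM in normal, 728 to 1317 FPKM in PBOO samples). Over all genes tested, 26.2% were lower and 5.76% higher by the unadjusted p at week 4. By the adjusted p at week 5, 14.5% fell and 15.5% rose. Of 9 leukocyte markers tested at week 5, 4 rose, with sums of 187 to 360 FPKM in normal and 561 to 2381 FPKM in PBOO samples. The fibroblast sum was 1147 to 1397 FPKM in normal and 157 to 286 FPKM in PBOO samples of week 5. There 4 of 8 fibroblast markers fell, while Pdgfrb, Thy1 and Vim overlapped with normal. The fibroblast sum ranged from 946 to 3172 FPKM among the normal samples of week 4 themselves, lowest in replicate 1. In bulk tissue, fewer cells of a type and less RNA per cell cannot be told apart. In all, 4871 genes were listed at 0 in every week 4 sample against 403 in every week 5 sample, so week and library series cannot be told apart, and PBOO was compared with normal only within a week.

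Chrm2, P2rx1 and Tacr2, each of which fell at week 5, and P2rx4, which rose there, are the members on which the results turn. The 250 bases before the transcription start of these 4 genes are given so that their upstream sequences can be set beside their changes. They come from RefSeq (build GRCr8), read 5′ to 3′ on the strand of the gene, with the E-box (CANNTG, a motif bound by basic helix-loop-helix factors) in capitals. The positions are chr4:65982200-65982449 (plus strand) for Chrm2, chr10:58116857-58117106 (plus) for P2rx1, chr20:30751395-30751644 (plus) for Tacr2 and chr12:39523090-39523339 (minus) for P2rx4.
Chrm2: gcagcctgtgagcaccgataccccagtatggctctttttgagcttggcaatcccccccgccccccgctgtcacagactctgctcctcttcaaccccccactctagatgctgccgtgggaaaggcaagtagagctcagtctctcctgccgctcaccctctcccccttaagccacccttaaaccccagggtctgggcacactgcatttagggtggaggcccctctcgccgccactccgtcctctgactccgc
P2rx1: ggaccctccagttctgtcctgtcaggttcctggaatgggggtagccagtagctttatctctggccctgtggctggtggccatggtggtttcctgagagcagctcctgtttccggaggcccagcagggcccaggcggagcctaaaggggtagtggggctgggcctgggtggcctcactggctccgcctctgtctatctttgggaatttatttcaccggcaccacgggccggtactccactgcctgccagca
Tacr2: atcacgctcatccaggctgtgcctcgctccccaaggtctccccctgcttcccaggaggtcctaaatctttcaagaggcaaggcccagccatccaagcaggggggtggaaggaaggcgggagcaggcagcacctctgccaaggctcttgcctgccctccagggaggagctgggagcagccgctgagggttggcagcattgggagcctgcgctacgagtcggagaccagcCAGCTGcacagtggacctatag
P2rx4: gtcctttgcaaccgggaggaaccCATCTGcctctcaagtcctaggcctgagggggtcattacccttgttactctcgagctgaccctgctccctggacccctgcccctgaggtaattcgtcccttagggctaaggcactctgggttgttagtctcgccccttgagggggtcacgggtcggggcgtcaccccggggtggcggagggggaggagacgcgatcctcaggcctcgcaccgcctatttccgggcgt

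Of the 9 members, 7 have such an entry. The CArG box, which serum response factor binds in many smooth muscle genes, was found in 0 of these 7 windows and in 1.5% of the 33469 promoters searched. The E-box was present in 4 of the 7 (Tacr2, P2rx4, P2rx7 and Chrm3) and in 65.5% of all promoters, and the AP-1 motif TGANTCA in 0 of 7 and in 6.34% of all. Each of these motifs reads alike on both strands, and a match or its lack says nothing of binding. The GC content of the printed windows was 62.0% for Chrm2, 62.0% for P2rx1, 63.6% for Tacr2 and 64.0% for P2rx4, against a median of 51.2% over all promoters. In the same annotation, P2rx1 and P2rx5 lie on chromosome 10 with 4 protein-coding genes between them. P2rx4 and P2rx7 are near neighbours on chromosome 12, with no protein-coding gene between them.

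P2rx1 was by far the most abundant of the 9 transcripts in normal bladder, at 469 ± 73.1 FPKM (SD, n = 3) at week 4 and 549 ± 97.4 FPKM (n = 3) at week 5. Tacr2 followed at 69.0 ± 15.4 and 44.7 ± 3.36 FPKM. In normal week 4 tissue Chrm2 (20.7 ± 2.91 FPKM) and P2rx4 (19.1 ± 2.77 FPKM) came next with ranges that overlapped, then Adrb3 and Chrm3, also overlapping, then Ednra, P2rx7 and P2rx5. In normal week 5 tissue P2rx4 stood above Chrm2, followed by Adrb3, then Chrm3, Ednra and P2rx7 with overlapping ranges, and P2rx5 last at 0.426 ± 0.118 FPKM. In PBOO tissue the order was P2rx1, Chrm2, then Tacr2 and P2rx4 at week 4, where the ranges of Tacr2 and P2rx4 overlapped. At week 5 P2rx4 stood first in both PBOO samples, ahead of P2rx1, and the other 7 formed a group from 0.0826 to 1.6 FPKM whose neighbours in the order overlapped.

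**Figure D1:**
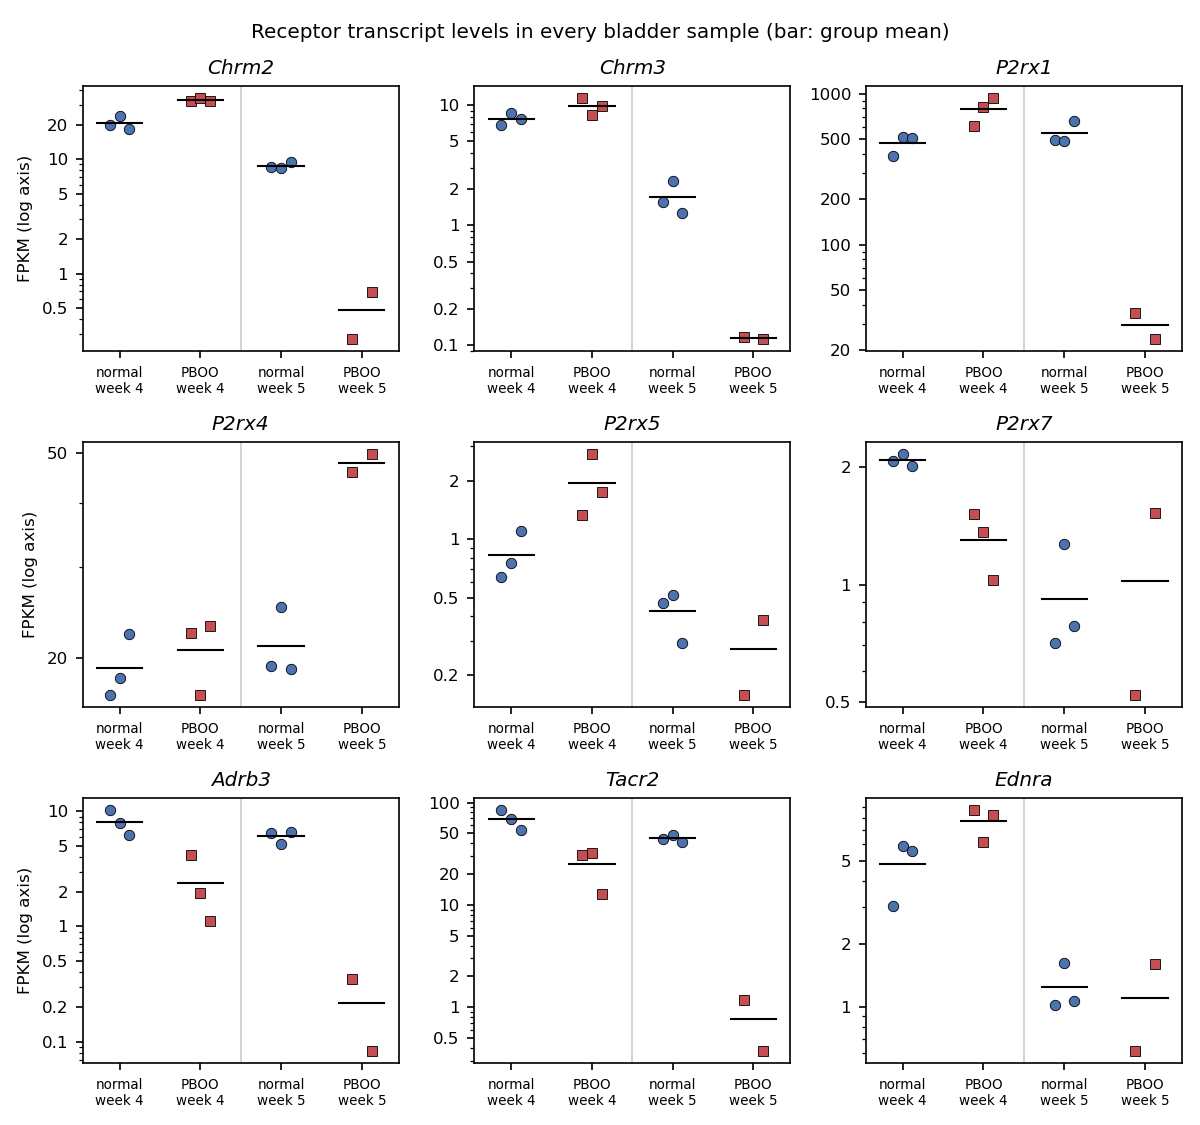
FPKM (log axis, a separate scale for each gene) of the 9 receptor transcripts in every sample, with circles for normal, squares for PBOO, and bars for group means (3 samples a group, 2 for PBOO week 5). Chrm2 and P2rx1 sit above normal at week 4 and far below it at week 5, Tacr2 and Adrb3 sit below normal in both weeks, and P2rx4 is above every normal sample at week 5.

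At week 4, Chrm2, P2rx1, P2rx5 and Ednra were higher in every PBOO sample than in any normal sample, by 1.59 to 2.34 times on the group means, while Tacr2, Adrb3 and P2rx7 were lower in every PBOO sample, by 1.6 to 3.38 times. Groups that did not overlap made up 6.63% (PBOO higher) and 34.9% (PBOO lower) of all genes tested. None of these differences passed the adjusted threshold of 0.05 in limma, which called 0 of 9 members against 0.512% of the 11320 genes tested (0.336% higher, 0.177% lower). By the unadjusted p (under 0.05), the same 7 of 9 members were called, 4 higher and 3 lower, against 32.0% of genes, 5.76% higher and 26.2% lower. The median log2 fold change of the 9 members was 0.34, and that of all genes was -0.25, so a typical gene lay somewhat lower in PBOO week 4 samples. After median-ratio scaling the median of all genes was -0.01 and every member kept its direction.

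Chrm2 encodes the M2 muscarinic receptor, the more abundant muscarinic subtype of the detrusor, which acts through inhibitory G proteins. Its level was 19.9, 24.0 and 18.3 FPKM in the normal and 32.3, 34.2 and 32.5 FPKM in the PBOO samples of week 4. The groups were separate and the PBOO samples lay close together, with a log2 fold change of 0.68 ± 0.13 (SE; limma adjusted p = 0.0538). Chrm3 encodes the M3 receptor, the Gq-coupled subtype that drives contraction. Chrm3 measured 6.85, 8.69 and 7.72 FPKM in normal and 11.5, 8.27 and 9.94 FPKM in PBOO samples. These ranges overlapped, and its log2 fold change of 0.34 ± 0.17 did not pass (limma adjusted p = 0.210). The ratio of Chrm2 to Chrm3 was 2.37 to 2.91 in normal and 2.81 to 4.13 in PBOO samples, so it did not separate the groups.

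P2rx1 encodes the ATP-gated channel of detrusor muscle. Its level was 385, 515 and 508 FPKM in normal and 613, 813 and 937 FPKM in PBOO samples of week 4, again without overlap (log2 fold change 0.74 ± 0.20, limma adjusted p = 0.0783). P2rx5, a less studied P2X subunit, was low at 0.638, 0.751 and 1.10 FPKM in normal and 1.33, 2.74 and 1.74 FPKM in PBOO samples. Its log2 fold change, 1.10 ± 0.36, was the highest of the 9 but also among the less precise (limma adjusted p = 0.104). P2rx4, a P2X subunit found in epithelia and immune cells as well as muscle, had overlapping levels of 16.9, 18.2 and 22.2 FPKM in normal and 22.3, 16.9 and 23.0 FPKM in PBOO samples (log2 fold change 0.11, 95% interval -0.29 to 0.51). P2rx7, the ATP-gated channel best known from macrophages, was 2.07, 2.16 and 2.02 FPKM in normal and 1.52, 1.37 and 1.03 FPKM in PBOO samples. All PBOO values of P2rx7 were below all normal ones (log2 fold change -0.65 ± 0.25, limma adjusted p = 0.129).

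Tacr2 encodes the neurokinin-2 receptor, through which neurokinin A contracts the detrusor. It was 84.4, 69.0 and 53.7 FPKM in normal and 30.5, 32.1 and 12.9 FPKM in PBOO samples of week 4. Every PBOO value was below the lowest normal value, with a log2 fold change of -1.54 ± 0.36 (limma adjusted p = 0.0679). Adrb3, the beta-3 adrenergic receptor that relaxes the detrusor through cyclic AMP, was lower in PBOO as well, at 10.2, 7.95 and 6.17 FPKM in normal and 4.16, 1.94 and 1.11 FPKM in PBOO bladder. Its groups did not overlap either (log2 fold change -1.88 ± 0.45, limma adjusted p = 0.0703). These were the lowest fold changes among the members, in samples whose smooth muscle sum was higher (6 of 10 markers above normal without overlap). The urothelial sum and the nerve and glia sum (1023 to 1441 FPKM in normal, 626 to 929 FPKM in PBOO) were lower there. The nerve and glia sum was mostly Uchl1 (936 to 1361 FPKM in normal, 566 to 883 FPKM in PBOO). The same sums stood beside the lower P2rx7, and their part in these values was not tested. PBOO replicate 3 was lowest in both genes. Ednra, the endothelin A receptor, measured 3.05, 5.90 and 5.56 FPKM in normal and 8.73, 6.13 and 8.30 FPKM in PBOO samples (log2 fold change 0.70 ± 0.29, limma adjusted p = 0.146). Normal replicate 1 was the lowest for Ednra and for the fibroblast sum, and without it the log2 fold change of Ednra was 0.41 (limma adjusted p = 0.256). The part of the fibroblast content in this value was not tested.

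The week 4 count rests on the PBOO replicates in use. Without PBOO week 4 replicate 1, 4 of the 9 members passed the adjusted threshold in limma (Chrm2, P2rx1, Adrb3 and Tacr2, adjusted p 0.0144 to 0.0365), where 18.8% of all genes passed as well, and 0 passed without any other single week 4 sample.

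At week 5, 5 receptors fell and 1 rose. Chrm2, Chrm3, P2rx1, Adrb3 and Tacr2 were between 14.9 and 58.0 times lower in PBOO than in normal bladder on the group means, and P2rx4 was 2.27 times higher. P2rx7 and Ednra did not pass the test, and P2rx5, with a mean under 0.5 FPKM, was not tested. So 6 of the 8 members tested passed the adjusted threshold in limma, against 29.9% of 13685 genes, with 5 lower against 14.5% of genes and 1 higher against 15.5%. The same 6 were the members called at an unadjusted p under 0.05 (43.4% of genes, 18.8% lower and 24.6% higher) and those whose groups did not overlap (25.0% of genes lower, 35.3% higher). The median log2 fold change of the 8 was -3.54, against 0.12 for all genes. The 10 smooth muscle markers had a median of -4.34 in the same samples, and the part of their loss in these values is set out after the single genes.

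Among the muscarinic receptors, Chrm2 was 8.53, 8.31 and 9.47 FPKM in normal and 0.268 and 0.693 FPKM in PBOO samples of week 5 (log2 fold change -4.04 ± 0.35, limma adjusted p = 0.00124). Chrm3 was 1.58, 2.32 and 1.27 FPKM in normal and 0.118 and 0.113 FPKM in PBOO samples (log2 fold change -3.04 ± 0.40, limma adjusted p = 0.00447). Both receptors were far below every normal sample. For Chrm3 the PBOO values lay near the 0.1 FPKM added before the logarithm, so the fitted fold understates the 14.9-fold difference of the means.

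P2rx1 measured 498, 488 and 661 FPKM in normal and 35.6 and 23.7 FPKM in PBOO samples of week 5 (log2 fold change -4.22 ± 0.23, limma adjusted p = 0.000328). P2rx4 measured 19.2, 25.1 and 19.0 FPKM in normal and 45.9 and 49.8 FPKM in PBOO samples (log2 fold change 1.19 ± 0.16, limma adjusted p = 0.005). The ATP receptors thus moved in opposite directions, and the ratio of P2rx1 to P2rx4, 19.5 to 34.9 in normal samples, was 0.476 to 0.775 in the PBOO samples. P2rx4 was the only one of the 9 that rose, in samples where the leukocyte sum was above that of normal bladder and the urothelial markers were split (2 rose and 3 fell of 10). The part of these cell types in the rise was not tested. P2rx5 was 0.470, 0.516 and 0.293 FPKM in normal and 0.157 and 0.385 FPKM in PBOO samples, with overlapping ranges (without the filter, log2 fold change -0.55, limma adjusted p = 0.383). P2rx7 was 0.706, 1.27 and 0.785 FPKM in normal bladder, while the PBOO replicates stood on either side of them at 0.520 and 1.53 FPKM. The interval of its log2 fold change ran from -1.28 to 1.32, which leaves changes of over 2-fold in either direction possible. PBOO replicate 2, the higher for P2rx7, also had the higher level of the leukocyte marker Ptprc, 18.6 against 4.32 FPKM in replicate 1, and the part of leukocytes in that gap was not tested.

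Tacr2 had the lowest fold change of the 9 at week 5. Its level was 44.2, 48.2 and 41.5 FPKM in normal and 1.17 and 0.372 FPKM in PBOO samples (log2 fold change -5.85 ± 0.41, limma adjusted p = 0.000613). Adrb3 was 6.46, 5.22 and 6.57 FPKM in normal and 0.35 and 0.0826 FPKM in PBOO samples (log2 fold change -4.42 ± 0.42, limma adjusted p = 0.00170). Both were below normal without overlap, as at week 4. Ednra, in contrast, measured 1.02, 1.63 and 1.07 FPKM in normal and 0.613 and 1.6 FPKM in PBOO samples. Its PBOO replicates again stood apart, replicate 2 being the higher, and its log2 fold change of -0.25 had an interval of -1.41 to 0.90 (limma adjusted p = 0.707).

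**Figure D2:**
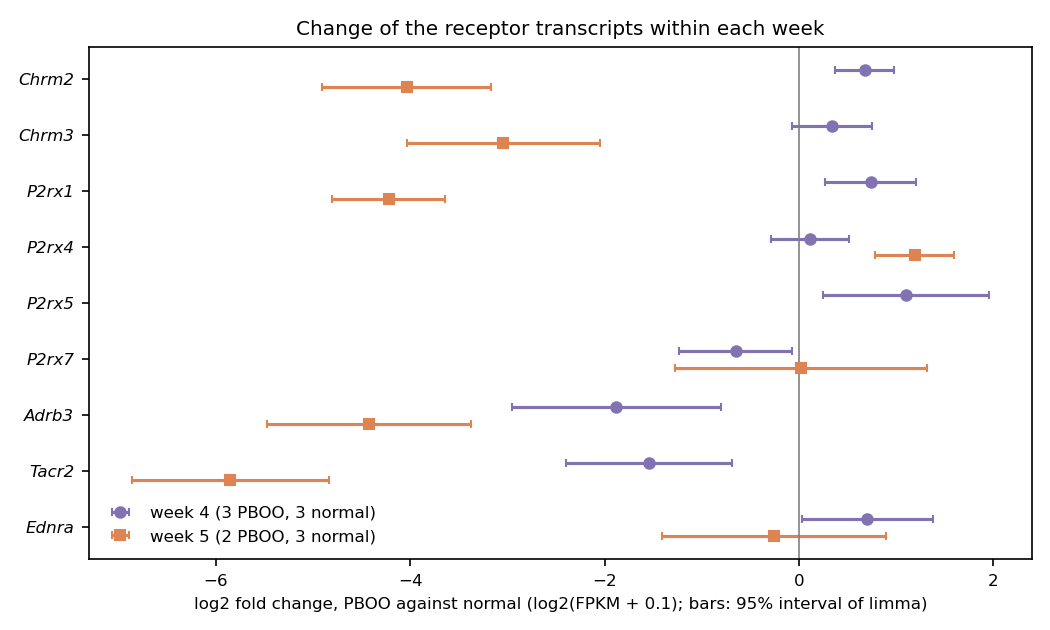
Log2 fold change of each receptor in PBOO against normal bladder on the log2(FPKM + 0.1) scale, circles for week 4 and squares for week 5, with 95% limma intervals. Week 4 changes lie between -1.88 and 1.10, while at week 5 Chrm2, Chrm3, P2rx1, Adrb3 and Tacr2 lie at or below -3.04, P2rx4 lies at 1.19, and P2rx5 has no point because it was not tested.

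Whether PBOO changed a receptor differently in the 2 weeks was tested as an interaction in limma over all 11 samples. The change at week 5 differed from that at week 4 for 7 of 9 members, against 40.0% of 11296 genes, with 6 in the lower direction against 13.5% of genes and 1 in the higher direction against 26.5%. At an unadjusted p under 0.05 the same 7 were called, against 50.3% of genes (15.7% lower, 34.6% higher). P2rx1 had the widest gap (-4.96 on the log2 scale, limma adjusted p = 4.81e-06), then Chrm2 (-4.71), Tacr2 (-4.31), Chrm3 (-3.38), Adrb3 (-2.55) and P2rx5 (-1.65, limma adjusted p = 0.0483), whereas P2rx4 moved up (1.08, limma adjusted p = 0.00722). P2rx7 (0.67) and Ednra (-0.96) did not pass (limma adjusted p = 0.353 and 0.182). P2rx1 and Chrm2 were thus higher than normal without overlap at week 4 and fell below it at week 5, while Tacr2 and Adrb3 were lower in both. The call of P2rx5 was lost in 9 of 18 alternatives (limma adjusted p up to 0.146), among them 0.01 FPKM added (0.0528) and 8 in which 1 sample was left out. That of Adrb3 was lost in 2, with 1 FPKM added (0.0843) and without PBOO week 5 replicate 2 (0.0607). Since the weeks may be different library series, the interaction compares the 2 contrasts, each within its own week. In the same interaction test all 10 smooth muscle markers passed in the lower direction (median -5.32 on the log2 scale, range -6.69 to -3.62). The part of the muscle markers in the gaps of the receptors was not tested here.

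To set the receptors beside the muscle in each sample, each level was also expressed relative to the mean log2 level of the 10 smooth muscle markers. With these sample numbers the exact permutation test (two-sided) cannot go below p = 0.1 at week 4 or p = 0.2 at week 5, so the values are given as sizes with their overlap. Relative to muscle, Chrm2, P2rx1 and Ednra differed little at week 4 (-0.16, -0.10 and -0.13 on the log2 scale, with overlapping groups). Tacr2 was 2.37 and Adrb3 2.71 log2 units lower relative to muscle, and neither overlapped with normal, as was also so for P2rx7 (-1.49) and P2rx4 (-0.72). In all, 4 of 9 members were below normal without overlap, where 83.2% of the genes tested were so and 0.698% were above. Without normal week 4 replicate 1 this count was 8 of 9 (92.3% of genes), and without PBOO week 4 replicate 1 it was 6 of 9 (85.7% of genes). The week 4 values also depend on the reference. Against Myh11 alone, Tacr2, Adrb3 and P2rx7 stayed below normal without overlap, while P2rx4 overlapped. Chrm2, P2rx1 and Ednra then lay above normal on average, with overlapping groups.

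On the same scale at week 5, Tacr2 was the only member with a lower mean in PBOO than in normal samples. Chrm2 (0.47), P2rx1 (0.28) and Adrb3 (0.08) overlapped with normal once set relative to muscle. Their fall was thus about as large as the mean fall of the 10 markers. Against Myh11 alone, P2rx1 lay above normal without overlap, while Chrm2 and Adrb3 still overlapped. Tacr2 was 1.35 log2 units lower relative to muscle, with values of -4.88 and -5.50 in the PBOO and -3.76, -3.74 and -4.02 in the normal samples (exact permutation p = 0.2, the smallest possible). It was the 1 member below normal without overlap, as were 0.270% of the genes tested. Tacr2 stayed below normal when either PBOO sample was left out (-1.66 without replicate 1, -1.04 without replicate 2). Of all genes, 0.443% and 0.579% were then below. Without replicate 2, Chrm2 was below normal as well (-6.66 against a lowest normal value of -6.26). The log2 fold changes of the 10 markers themselves ran from -5.70 to -3.86, against -5.85 for Tacr2. With 1 FPKM added in place of 0.1 the difference of Tacr2 was -0.49. Chrm3 (1.46), P2rx4 (5.69), P2rx5 (3.95), P2rx7 (4.52) and Ednra (4.25) were above normal, as were 97.8% of genes tested. For low receptors the value depends on the constant added. With 1 FPKM in place of 0.1, the differences of Chrm2, Chrm3 and Adrb3 were 1.5, 2.97 and 1.69. A smaller constant was not tried on this scale. The PBOO values of Chrm3 lay near 0.1 FPKM, so its place above normal depends on the constant. The difference of Chrm2 was also set by single samples, at 1.42 without PBOO week 5 replicate 1 and -0.48 without replicate 2.

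**Figure D3:**
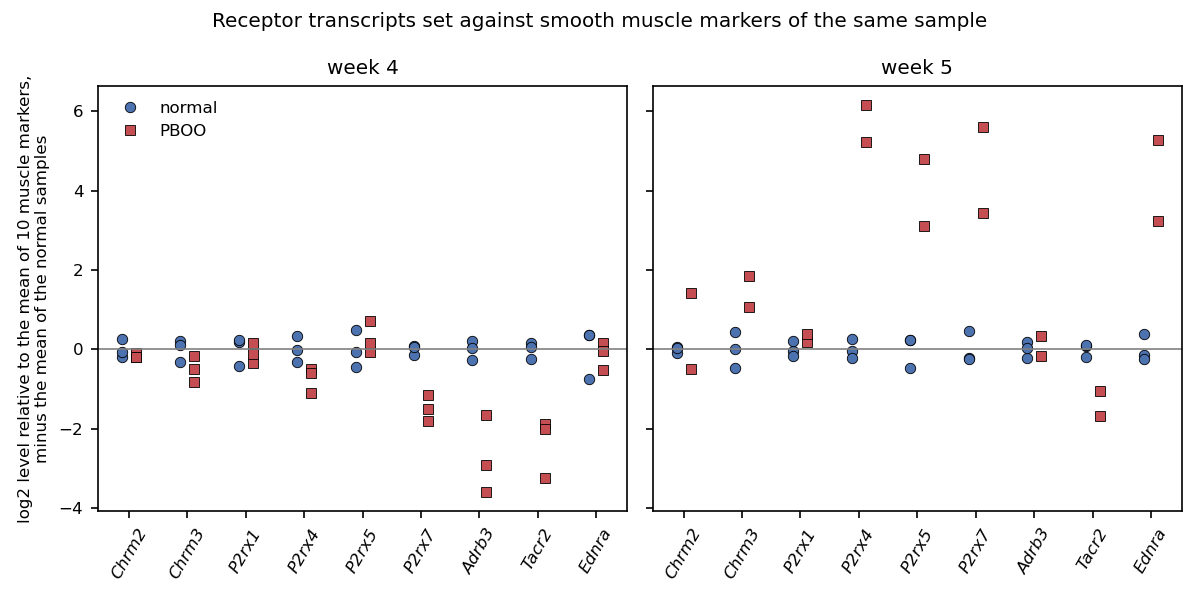
Log2 level of each receptor relative to the mean of 10 smooth muscle markers in every sample, shown as the difference from the normal mean of the same week. At week 4 Tacr2 and Adrb3 lie 2.37 and 2.71 below normal on average and Chrm2 and P2rx1 lie near 0, and at week 5 Tacr2 is the 1 receptor with both PBOO samples under all normal samples.

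The ligand, enzyme and receptor genes around the 9 members were followed with lists chosen by function. Of the cholinergic genes (other receptors, acetylcholine synthesis and breakdown), 12 of 13 were in the table, and 5 were tested at week 4, where 0 passed the adjusted threshold and 0 the unadjusted one. At week 5, 4 were tested, and Ache and Bche, which encode the enzymes that break down acetylcholine and other choline esters, moved in opposite directions. Ache was 0.988, 2.29 and 1.57 FPKM in normal and 11.5 and 37.7 FPKM in PBOO samples (log2 fold change 3.68, limma adjusted p = 0.00757). Bche was 1.72, 2.37 and 1.96 FPKM in normal and 0.110 and 0.0306 FPKM in PBOO samples (log2 fold change -3.67, limma adjusted p = 0.00243). The nicotinic subunit Chrnb4 had a log2 fold change of -1.39 and did not pass (limma adjusted p = 0.0555).

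Of the 24 other purinergic genes, 0 of 20 tested passed at week 4 and 4 were lower by the unadjusted p, against 26.2% of all genes. At week 5, 4 of 16 rose and 3 fell, against 15.5% and 14.5% of all genes. Entpd8, an ectonucleotidase that degrades extracellular ATP, rose from 0.0802, 0.0205 and 0.0441 FPKM to 3.54 and 3.35 FPKM (log2 fold change 4.60, limma adjusted p = 0.00170). Entpd3, of the same family, rose as well (1.5), and so did the ADP receptor P2ry1 (1.49). Entpd1, the ectonucleotidase of vessels and muscle, fell by 1.55 and the ATP and UTP receptor P2ry2 fell by 1.15 on the log2 scale, while the adenosine receptor Adora2b (-2.06) narrowly missed the threshold (limma adjusted p = 0.0501).

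Among the 15 adrenergic genes, 8 were tested in each week. Adra1d, the alpha-1D receptor, was 2.08, 1.02 and 1.39 FPKM in normal and 4.80, 10.1 and 8.43 FPKM in PBOO samples of week 4 (log2 fold change 2.29, limma adjusted p = 0.0503). At week 5 it was 1.93, 2.62 and 2.40 FPKM in normal and 0.176 and 0.225 FPKM in PBOO samples, and it fell (log2 fold change -3.00, limma adjusted p = 0.00212). The alpha-1D receptor thus had the same order of groups as Chrm2 and P2rx1 in both weeks. Adrb1, the beta-1 receptor, was lower at week 4 like Adrb3 (-1.46, limma adjusted p = 0.0778), as was Maob (-1.10, limma adjusted p = 0.0894). At week 5 Maoa, the monoamine oxidase that breaks down noradrenaline, fell by 2.61 on the log2 scale (limma adjusted p = 0.000521). In the adrenergic list as a whole, 5 of 8 genes were lower and 1 higher by the unadjusted p at week 4 (26.2% and 5.76% of all genes). At week 5, 3 of 8 fell and 0 rose (14.5% and 15.5% of all genes).

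Of 7 tachykinin genes 6 were in the table. Tacr1, the substance P receptor, was 17.1, 9.13 and 9.52 FPKM in normal and 6.23, 8.64 and 2.66 FPKM in PBOO samples of week 4, where it did not pass (log2 fold change -1.11, limma adjusted p = 0.146). At week 5 it fell by 1.46 on the log2 scale (limma adjusted p = 0.0157), so Tacr1 and Tacr2 were lower in PBOO without overlap in both weeks. Tacr3, the neurokinin B receptor, overlapped at week 4 (1.56, 2.10 and 2.51 FPKM in normal, 2.27, 1.31 and 0.514 FPKM in PBOO samples) and was too low to be tested at week 5. Of the endothelin genes, 0 of 4 tested passed at week 4. At week 5 Ece2, a processing enzyme of the family, fell by 1.52 (limma adjusted p = 0.0220), and Ednrb, the endothelin B receptor, did not pass (1.21, limma adjusted p = 0.0892).

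Other receptors known to act on smooth muscle numbered 41, of which 40 were in the table. Of these, 0 of 35 tested passed at week 4 in limma. At an unadjusted p under 0.05 there were 3 higher and 6 lower genes, against 5.76% and 26.2% of all genes. Among the 3 higher was the kinin receptor Bdkrb1 (1.34, limma adjusted p = 0.0917). At week 5, 2 of 25 rose and 8 fell, against 15.5% and 14.5% of all genes. Avpr1a, the vasopressin V1a receptor, fell from 12, 10.4 and 11 FPKM to 0.511 and 0.752 FPKM (log2 fold change -3.96, limma adjusted p = 0.000289). Ptger3, a prostaglandin E2 receptor, and S1pr3, a receptor of sphingosine 1-phosphate, fell by 3.86 and 2.74 on the log2 scale. The receptor activity-modifying proteins Ramp3 (2.89) and Ramp2 (1.53), partners of the calcitonin receptor family, rose.

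Genes of G protein coupling and second messengers numbered 46, with 44 in the table. Plcb1, a phospholipase C that Gq-coupled receptors such as M3 activate, was 1.74, 1.90 and 2.49 FPKM in normal and 4.98, 6.76 and 6.30 FPKM in PBOO samples of week 4, and it was the 1 of 42 genes tested that passed (log2 fold change 1.51, limma adjusted p = 0.0483). Over all genes 0.512% passed at week 4, and 0 with median-ratio scaling, where the call of Plcb1 was lost. The adenylyl cyclase Adcy7 (1.88, limma adjusted p = 0.0538) and the Gq family subunit Gna14 (-1.42, limma adjusted p = 0.0622) did not pass. Rgs2, an inhibitor of Gq signalling, was -1.31 (limma adjusted p = 0.0889) at week 4 and fell by 3.05 on the log2 scale at week 5 (limma adjusted p = 0.00672). At week 5, 4 of 40 rose and 14 fell in this list, against 15.5% and 14.5% of all genes. Adcy5, an adenylyl cyclase, fell from 17.0, 20.6 and 18.3 FPKM to 1.54 and 1.42 FPKM (log2 fold change -3.56, limma adjusted p = 0.000233). Pde3a, a phosphodiesterase that degrades cyclic AMP, fell by 3.27, while Arrb2, a beta-arrestin that uncouples receptors, and Adcy6 rose by 1.46 and 1.0.

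**Figure D4:**
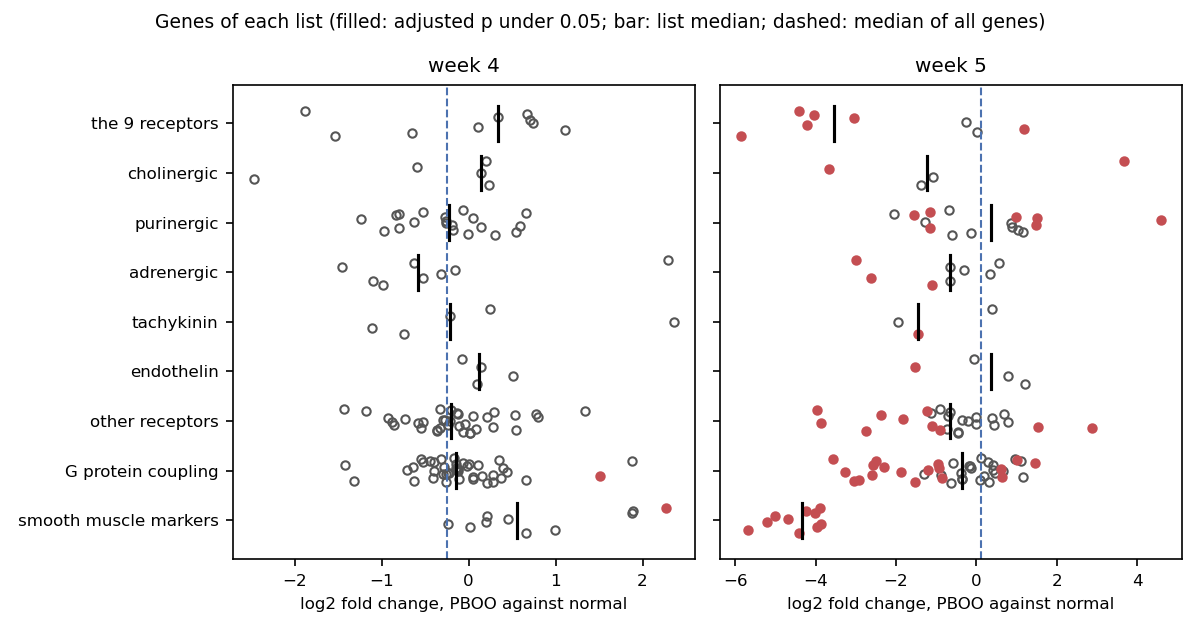
Log2 fold change (PBOO against normal) of every gene tested in each list, at week 4 and week 5, with filled points for adjusted p under 0.05, a bar for the list median and a dashed line for the median of all genes (-0.25 at week 4, 0.12 at week 5). The median of the receptors is 0.34 at week 4 (9 tested) and -3.54 at week 5 (8 tested). Those of the other receptor lists lie between -0.58 and 0.15 at week 4 and between -1.46 and 0.37 at week 5.

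The genes whose pattern over the 11 samples was most like each receptor's were found among 9970 genes, on log2 levels centred on the normal mean of the week. The samples share week and library, and the week 5 PBOO samples weigh most, so the correlations are given as descriptions. P2rx1 was closest to Rbfox3 (r = 0.999), Ncam1 (0.996) and Tagln (0.996), the last a smooth muscle marker, and in the 6 week 4 samples alone the values were 0.978, 0.905 and 0.949. Tacr2 was closest to Acly (0.996), Cntfr (0.994) and Abca8a (0.994), and Adrb3 to Scmh1 (0.991), Atp1b2 (0.984) and Aldh6a1 (0.983). Chrm2 followed Fez1 (0.995), Prkcb (0.994) and Faxc (0.994), and Chrm3 followed Grb10 (0.994), Ldb3 (0.993) and Anxa6 (0.990). The nearest genes of P2rx4 were Map3k6, Neurl3 and Lfng (0.971 to 0.972). Over the 11 samples, weaker likeness was seen for P2rx5 (Bnip2, 0.963, then Gpr137b and Gpatch11), P2rx7 (Sugt1, 0.960, then Hint1 and Mrps16) and Ednra (Lsp1, 0.919, then Pola1 and Aldh18a1). This order did not hold in the week 4 samples alone. There the nearest genes gave 0.96 for P2rx5, 0.963 for P2rx7 and 0.869 for Ednra. The values were 0.846 for Chrm2, 0.827 for Chrm3, 0.692 for P2rx4, 0.973 for Tacr2 and 0.966 for Adrb3.

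Among the members, Adrb3 and Tacr2 ran together both over 11 samples (r = 0.970) and over the 6 of week 4 (r = 0.95). Chrm2 and P2rx1 did so as well (0.972 and 0.840). P2rx1 and Adrb3 correlated at 0.729 over all samples but at -0.980 within week 4, where P2rx1 was higher and Adrb3 lower in PBOO bladder. P2rx4 ran against Tacr2 (r = -0.931 over 11 samples, -0.592 within week 4).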

How the data were processed

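RNA was sequenced from bladder tissues of 11 samples. The deposited table holds FPKM values made by the authors, whose methods name HISAT2 for mapping, StringTie for assembly and featureCounts for the values. The submitters' processing notes list bcl2fastq 2.0, HISAT2, StringTie, DESeq2, limma and the mouse build mm10, although the samples are rat, and the annotation and strand of counting are not given in the sources used here. How the reference bears on single genes was not tested.

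All 11 columns were used, with 0 columns left out. Groups were taken from the sample labels. The labels number replicates without naming animals, so p-values measure the spread between these samples. The values were not scaled further. The table holds no counts, and low values did not fall on whole reads (9.32% to 12.9% of ratios within 0.5% of a ratio of whole numbers up to 5, against 7.51% to 11.2% after shuffling), so the depth is unknown and no counting error is given. No sample pairs were identical (0 pairs). PBOO and normal samples were compared in each week on log2(FPKM + 0.1) with limma 3.58.1 (trended empirical Bayes, R 4.3.3), after genes averaging under 0.5 FPKM in the samples compared were dropped, and p-values were adjusted by Benjamini-Hochberg over all genes tested. Fold changes on this scale understate changes of low genes. Genes passed at an adjusted p under 0.05. The interaction was fitted over all samples. The authors' DESeq2 test needs counts and was not run. Exact permutation tests were two-sided (scipy 1.17.1), and tables and figures used Python 3.11.15, pandas 2.3.3, numpy 2.4.6 and matplotlib 3.10.9. The steps were tested on simulated data.

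The members, gene lists and markers were chosen with earlier results of these data known. From each list, up to 3 genes a direction and week were named, with the largest log2 fold change among those with an unadjusted p under 0.05, no less than a 2-fold change, an average of 1 FPKM or more and separate group ranges, together with the 3 genes most like each member. Alternatives were other pseudocounts (1 and 0.01), no filter, median-ratio, equal-sum and quantile scaling, no trend, a replicate block, a joint fit, Myh11 as the muscle reference and leaving out each sample. On the scale relative to muscle, the only other pseudocount was 1. Leaving out samples on the scale relative to muscle, and the urothelial sum without Krt5 and Krt19, were chosen after seeing the data. Symbols matched RefSeq (GRCr8) for 9 of 9 members, and promoter coordinates are of that build.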

Additional observations from a re-analysis of the deposited data

Results flagged for a closer look

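The effect of PBOO differed between week 4 and week 5 for 7 receptors by the interaction test in limma (adjusted p under 0.05, n = 11 samples), as it did for 40.0% of all genes. The change at week 5 minus the change at week 4 was -4.96 for P2rx1, -4.71 for Chrm2, -4.31 for Tacr2, -3.38 for Chrm3, -2.55 for Adrb3, -1.65 for P2rx5 and 1.08 for P2rx4 on the log2 scale. The call of P2rx5 (adjusted p = 0.0483) was lost in 9 of 18 alternatives and that of Adrb3 in 2. Each group has 2 or 3 samples, too few to look for single samples far from the rest. All 10 smooth muscle markers also passed the interaction test in the lower direction (median -5.32 on the log2 scale). The muscle marker sums given in the report moved with these differences (higher in PBOO at week 4, lower at week 5), and their part was not tested beyond the values relative to muscle.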

How the results depend on the processing

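The 6 receptors called at week 5 (Chrm2, Chrm3, P2rx1, P2rx4, Adrb3 and Tacr2) kept an adjusted p under 0.05 and their direction under every alternative run, including those without 1 PBOO week 5 sample, where the spread comes from the normal samples alone and the lone PBOO sample is assumed to vary like them. At week 4 the limma count of 0 became 1 with quantile normalization (1.02% of all genes), 2 in the fit over all 11 samples (8.62%), and ranged from 0 to 4 when single samples were left out, with 4 without PBOO week 4 replicate 1 (18.8%). Over all genes, the 58 called at week 4 became 0 with median-ratio scaling, without the filter, without the trend and without normal replicate 2 or 3 or PBOO replicate 2 or 3. Of the values without a call at week 5, P2rx7 changed sign to -0.076 with median-ratio scaling, -0.049 with equal sums and -0.065 with the replicate block, and ran from -0.68 to 0.71 over samples left out, while Ednra ran from -0.88 to 0.37. The difference between weeks of P2rx7 ran from -0.027 to 1.37 over samples left out, with -0.027 without PBOO week 5 replicate 2. Calls on the difference were lost 11 times, for P2rx5 (limma adjusted p 0.0282 to 0.146 over all alternatives) and for Adrb3 with 1 FPKM added (0.0843) and without PBOO week 5 replicate 2 (0.0607), and they were gained for P2rx7 (0.0401) and Ednra (0.0381) without PBOO week 5 replicate 1 and 2 respectively. Relative to muscle, the members below normal at week 4 ranged from 4 to 8 over samples left out (8 without normal week 4 replicate 1, with 92.3% of genes), and at week 5 from 1 to 2 (2 without PBOO week 5 replicate 2, with 0.579% of genes). Same-numbered samples did not deviate together in every pair (r = 0.154, -0.0241 and 0.232 at week 4, -0.00081 and 0.124 at week 5). The pairs are few, and at week 5 the deviations of the 2 PBOO samples mirror each other by construction. This check therefore cannot decide whether the numbers pair samples. With the replicate block 0 members passed at week 4 and 6 at week 5, which changed no call. Normal week 5 replicate 3 has no PBOO sample of its number. The week 5 fold changes with the block therefore equal those without that sample (-3.98 for Chrm2 in both). At week 4 the block lowered the SE of Adrb3 from 0.454 to 0.264 and of Tacr2 from 0.362 to 0.193 (limma adjusted p = 0.0512 and 0.0505). The cause of these changes was not tested. With 2 PBOO samples at week 5 and unknown depth, small changes of receptors near 1 FPKM or under could not be resolved.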
